A study of Mus musculus with 145 samples.

Results

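SSC3 is 1 of the 4 clusters of spermatogonial stem cells (SSCs) in the authors' annotation of single-cell transcriptomes collected while mouse SSCs were reprogrammed towards pluripotency. Its members are the cells that the deposited annotation assigns to SSC3, which makes 494 of the 4464 cells of the series and 494 of the 2265 cells of SSC1 to SSC4. SSC1 held 818 cells, SSC2 499 and SSC4 454. The SSCs came from neonatal male mice labelled C57BL/6[female] X DBA[male] that carry an *Oct4*-EGFP reporter, and were grown on mouse embryonic feeder fibroblasts with EGF, bFGF, GDNF and ESGRO (leukaemia inhibitory factor). All SSC3 cells are from the original condition, whose treatment label reads none because the chemicals of the study were not added, and the groups used here are days of induction, from 0 to 27, which also differ in collection date and partly in batch. Cells were picked by mouth pipette from colonies and profiled with STRT-seq in modified form, in which plates carry a barcode for each of 96 cells of a library and a unique molecular identifier (UMI) for each cDNA molecule. SSC3 cells lay in 28 libraries and 5 collection dates, 464 in batch B1 and 30 in batch B2, and 18 libraries held 5 or more of them, 471 cells in all. Those libraries are the replicates below. They are not stated to be separate cultures, so the spread between them may be technical.

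SSCs are the germline stem cells of the testis. GDNF from their niche acts through the receptor pair GFRA1 and RET and keeps them dividing without differentiating, and FGF adds to this through the ERK kinases. Dividing cells switch on the genes of DNA synthesis in S phase and those of the spindle, the kinetochore and mitotic entry in G2 and M phase, and cells that have left the cycle or rest in G1 hold little of the latter. The markers of the label were present. *Zbtb16*, which encodes the stem cell transcription factor PLZF, gave 95.1 ± 20.2 CPM (the scaled share of the UMIs summed over the cells of a library, mean ± SD over 18 libraries) in SSC3 and 109 ± 19.9 in the other SSC1 to SSC4 cells of the same libraries. *Dazl*, a germline RNA-binding protein, gave 688 ± 103 against 767 ± 102, and *Ddx4*, the germline helicase VASA, 391 ± 33.2 against 451 ± 35.6. With cells thinned to 100000 UMIs and shallower cells left out (470 of 494 SSC3, 518 of 818 SSC1, 472 of 499 SSC2 and 420 of 454 SSC4 cells remained), *Zbtb16* had a UMI in 92.6% of 470 SSC3 cells, and *Dazl* and *Ddx4* in 100%. Within libraries the log2 difference was -0.20 ± 0.39 for *Zbtb16* (higher in SSC3 in 6 of 18 libraries), -0.16 ± 0.16 for *Dazl* (3 of 18) and -0.21 ± 0.10 for *Ddx4* (2 of 18).

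Markers of other cell types ranged from near 0 to clearly present. Levels in this paragraph are CPM without scaling between libraries, so they differ slightly from the scaled values given elsewhere. *Sycp1* (median 450 CPM, range 356 to 502) and *Sycp3* (50.3, 8.17 to 67.9), both of the meiotic synaptonemal complex, had UMIs in all 18 libraries. So did *Nes*, of neural progenitors (81.1, 37.2 to 102), the collagen gene *Col1a1* (35.4, 9.99 to 72) and *Sox2*, of pluripotent and neural cells (22.6, 4.26 to 76.4). *Pou5f1* (*Oct4*) ranged from 0.872 to 6.05 CPM in the SSC3 sums of the 18 libraries, and *Nanog* had a median of 0.814 CPM. In day 14 replicate 5 *Nanog* reached 68.6 CPM, where the next highest library had 11, and 182 of its 214 UMIs were in 1 of 8 cells. In day 14 replicate 4 the collagen gene *Col1a2* reached 98.6 CPM, 101 of its 213 UMIs being in 1 of 6 cells, against a median of 0.316 CPM. Other genes of the same cell types differed from these: *Spo11*, of meiotic recombination, had a median of 3.11 CPM (16 of 18 libraries with a UMI), *Sox1*, of the neural lineage, had 21 UMIs in 3 libraries and *Pax6* a median of 1.47 CPM, and the mesenchymal genes *Col3a1* and *Vim* had medians of 0.0323 and 5.65 CPM. Of Sertoli cell genes, *Amh* had 13 UMIs in 3 libraries, but *Sox9* had a median of 12.6 CPM (16 of 18 libraries with a UMI) and *Wt1* 13.5 (18 of 18). Of Leydig cell genes, *Cyp17a1* and *Insl3* had 1 UMI each and *Star* a median of 2.2 CPM (17 of 18). Summed over 30 fibroblast and feeder genes, the level was 1179 CPM (median library) in SSC3 and 1140 in the other SSC cells, and over 14 genes of the somatic testis, of which 13 had a UMI, 49.1 and 42.6. Over 30 meiosis genes it was 2985 and 3099, over 18 neural genes 333 and 281, and over 29 pluripotency genes 594 and 523. In the library where each was highest, *Sycp1* had a UMI in 23 of 23 SSC3 cells, *Col1a1* in 10 of 10 and *Nes* in 12 of 13. *Wt1* had a UMI in 41 of 46 and *Sox9* in 40 of 46, but *Spo11* in 2 of 11 and *Pax6* in 1 of 6. Whether these UMIs came from the SSC3 cells themselves or from other cell types was not tested. Their part in the results below was not tested either, except where values without day 14 replicate 4 or 5 are given.

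SSC3 was a late cluster. It held 240 of 556 SSC1 to SSC4 cells on day 20 (43.2%), 185 of 488 on day 23 (37.9%) and 16 of 75 on day 27 (21.3%). Before day 20 it held 10 of 50 on day 10 (20.0%) and 35 of 388 on day 14 (9.02%), but 0 of 186 on day 12 and 4 of 359 on day 18 (1.11%). Days 20 and 23 together gave 86.0% of all SSC3 cells. The cluster was thus present on days 10 and 14, nearly absent on days 12 and 18 and most common on days 20 and 23.

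Over libraries with at least 10 SSC1 to SSC4 cells, the SSC3 share was 42.6 ± 10.5% on day 20 (n = 7, lowest 23.9, median 42.9, highest 51.8) and 38.1 ± 9.06% on day 23 (n = 6, lowest 24.5, median 40.7, highest 49.5). The difference of -4.48 percentage points was smaller than the spread between libraries (exact two-sided permutation test, p = 0.422, adjusted over 2 tests 0.422). It turned to 8.28 points (p = 0.484, exact permutation) when libraries with fewer SSC cells were also used. Days 20 and 23 together had 40.5 ± 9.71% (n = 13, lowest 23.9) and the earlier days 5.23 ± 6.56% (n = 16, median 2.87, highest 20.0), so that no early library reached a late one. This difference of 35.3 points gave a permutation p of 2e-05, the smallest that 100000 resamples can give (two-sided, adjusted 4e-05), and was 37.2 points within batch B1. Collection dates were not shared between early and late days, except 1 date of days 18 and 20, so day and date cannot be told apart. The cells were hand-picked, so these shares describe the collected cells and not the culture.

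**Figure D1:**
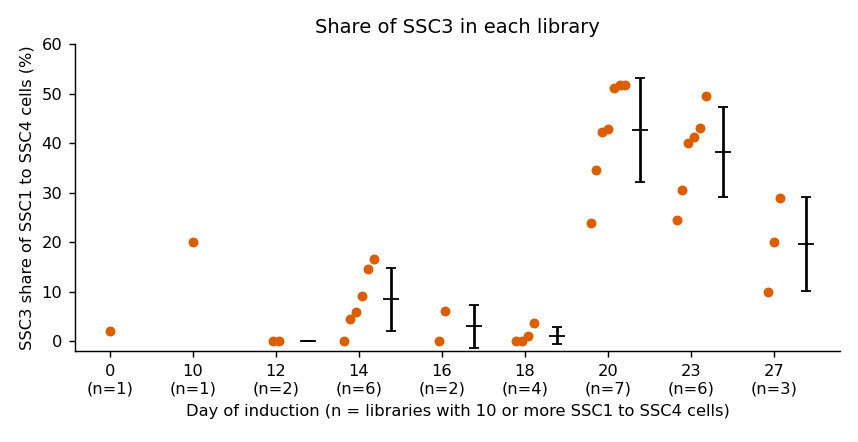
Percent of SSC1 to SSC4 cells that belong to SSC3 (y axis) by day of induction (x axis), 1 point per library with at least 10 SSC1 to SSC4 cells. The 13 libraries of days 20 and 23 sit between 23.9 and 51.8%, above all earlier libraries, which reach at most 20.0%.

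SSC3 cells carried the most UMIs of the 4 clusters. The median was 378770.5 UMIs per cell (range 31336 to 889140), against 149268 in SSC1, 286300 in SSC2 and 281650 in SSC4. Of the SSC3 cells, 24 had fewer than 100000 UMIs, as had 361 cells of the other SSC clusters. Within libraries the ratio of median UMIs, SSC3 over the other SSC cells, was 1.46 ± 0.33 (n = 18, range 0.818 to 2.01) and was above 1 in 17 of 18. By cluster the ratio was 1.31 ± 0.28 over SSC2 (11 of 12 libraries above 1) and 1.23 ± 0.27 over SSC4 (12 of 15). Over SSC1 it ran from 1.72 to 26.4 in 11 libraries. No profile of an SSC3 cell was identical to another.

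More UMIs alone give more genes, so the number of genes was also counted at equal depth. At full depth SSC3 cells had 1037 ± 412 more genes per cell than the other SSC cells of their library. After thinning cells to 100000 UMIs and leaving out shallower ones, SSC3 still had 572 ± 217 more (8014 ± 290 against 7442 ± 237), higher in 18 of 18 libraries. The thinned difference was 525 ± 190 over SSC4 (15 of 15), 502 ± 291 over SSC2 (12 of 12) and 927 ± 364 over SSC1 (8 of 8). The higher gene number of SSC3 was therefore seen against each of the other 3 clusters at equal UMIs. Mitochondrial UMIs took 0.763% of the total in SSC3 and 0.901% in the other SSC cells, a difference of -0.137 ± 0.114 points.

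**Figure D2:**
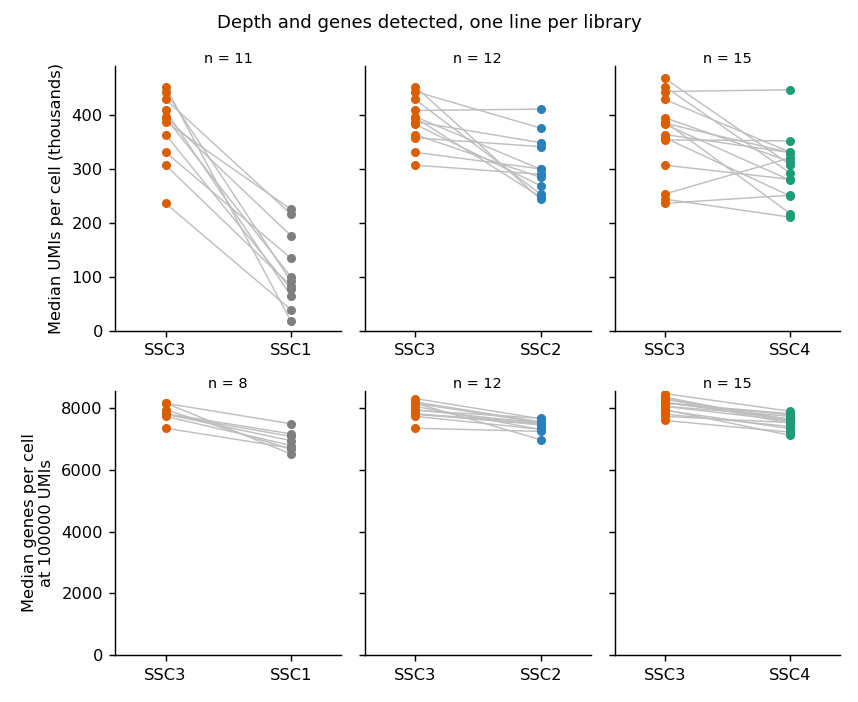
Median UMIs per cell (top) and median genes per cell at 100000 UMIs (bottom), each line joining SSC3 and another SSC cluster of the same library. At equal UMIs SSC3 is higher in every library, 8 for SSC1, 12 for SSC2 and 15 for SSC4.

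The cell cycle placed SSC3 beside SSC2 and apart from SSC1 and SSC4. A list of 53 G2 and mitosis genes took 1.14 ± 0.11% of UMIs in SSC3 cells and 0.760 ± 0.140% in the other SSC cells (18 of 18 libraries higher). Against SSC4 the shares were 1.13 and 0.639% (15 of 15), against SSC1 1.21 and 0.684% (11 of 11), and against SSC2 1.18 and 1.2% (6 of 12). For 45 S phase genes SSC3 was above SSC4 by 0.225 ± 0.136 points (14 of 15) and above SSC1 by 0.139 ± 0.111 (10 of 11). It was below SSC2, with 0.899 against 1.03% (1 of 12 higher). The G2 and mitosis share of SSC3 thus differed from that of SSC2 by less than the spread between libraries. The clusters were drawn on these same transcriptomes, so all comparisons between clusters describe them, and no test of levels between clusters is given.

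**Figure D3:**
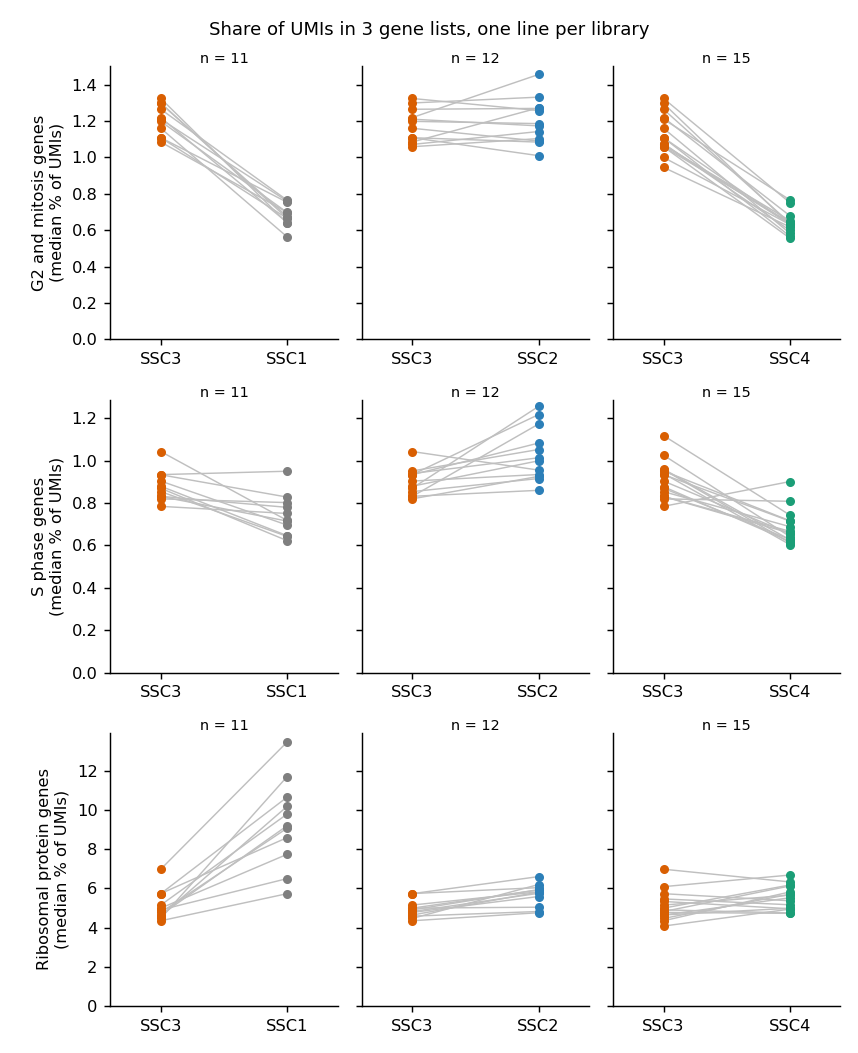
Median percent of a cell's UMIs in G2 and mitosis genes, S phase genes and ribosomal protein genes (rows), each line joining SSC3 and another SSC cluster of the same library. SSC3 is above SSC1 and SSC4 in the top row in every library, crosses SSC2, and is below SSC1 and SSC2 in the bottom row in every library.

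Within SSC3 the cells differed among themselves along the cycle. In the 11 libraries with at least 20 SSC3 cells, the Spearman correlation across cells between the G2 and S phase shares had a median of -0.451 (range -0.712 to -0.127). The G2 share followed a cell's UMIs only weakly (median 0.117, range -0.249 to 0.471), and the S share was negative with UMIs in each library (median -0.163, range -0.742 to -0.0167). These are descriptions across cells that share a library. Both shares have the cell's total as denominator.

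Against SSC4, the contrast was led by genes of mitosis. In 15 libraries with at least 5 cells of each (444 and 422 cells), 155 of 13198 genes were higher in SSC3 by a mean of at least 1.5-fold with the same sign in every library (1.17% of genes) and 58 were lower (0.439%), 213 in all (1.61%). Differences are in log2(CPM + 1) after TMM scaling. The list of G2 and mitosis genes gave 35 of the 155. *Mki67*, the proliferation antigen Ki-67, was at 107.5 to 201 CPM in SSC3 (median 136) and at 4.55 to 35.6 in SSC4 (median 14), a log2 difference of 3.28 ± 0.64 without overlap of the libraries. After thinning, 94.7% of SSC3 cells and 42.4% of SSC4 cells had a *Mki67* UMI, with 95.8% in SSC2 and 57.9% in SSC1.

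The 3 genes next in size were *Prr11*, linked to mitotic progression, *Hist1h2bj*, an H2B histone gene, and *Cdkn3*, a phosphatase that acts on CDK1. *Prr11* ran from 5.40 to 40.0 CPM in SSC3 (median 16.3) and from 0.625 to 9.44 in SSC4 (median 2.09), 2.47 ± 1.08 higher on the log2 scale. *Hist1h2bj* ran from 11.5 to 60.2 CPM in SSC3 (median 33) and from 0.254 to 23.2 in SSC4 (median 5.37), 2.44 ± 1.11 higher. *Cdkn3* ran from 37.1 to 152 CPM in SSC3 (median 98.3) and from 5.00 to 27.2 in SSC4 (median 19.3), 2.33 ± 0.92 higher. Only *Cdkn3* of these 3 had no overlap between the library ranges, although each was higher in SSC3 in all 15 libraries.

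Genes of G2 and M phase often carry a CHR element, TTTGAA, and CCAAT boxes close to the start of transcription, the sites of the DREAM and MuvB complexes and of NF-Y. The promoter windows of the 4 leading genes are shown because they are the genes that most separate SSC3 from SSC4. They are RefSeq sequences on GRCm38.p6, 300 bases each from 250 before to 50 after the start, in lower case with TTTGAA and CCAAT on either strand in capitals (a reverse match reads TTCAAA or ATTGG). *Mki67* lies at chr7:135716330-135716629 (minus strand), *Prr11* at chr11:87108665-87108964 (minus), *Hist1h2bj* at chr13:22042948-22043247 (plus) and *Cdkn3* at chr14:46760291-46760590 (plus).
Mki67: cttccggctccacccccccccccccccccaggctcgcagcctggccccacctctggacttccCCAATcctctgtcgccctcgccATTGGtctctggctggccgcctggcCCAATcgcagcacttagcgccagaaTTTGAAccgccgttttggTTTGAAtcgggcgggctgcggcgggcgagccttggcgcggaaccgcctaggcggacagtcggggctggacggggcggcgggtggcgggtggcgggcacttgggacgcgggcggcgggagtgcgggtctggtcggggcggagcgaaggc
Prr11: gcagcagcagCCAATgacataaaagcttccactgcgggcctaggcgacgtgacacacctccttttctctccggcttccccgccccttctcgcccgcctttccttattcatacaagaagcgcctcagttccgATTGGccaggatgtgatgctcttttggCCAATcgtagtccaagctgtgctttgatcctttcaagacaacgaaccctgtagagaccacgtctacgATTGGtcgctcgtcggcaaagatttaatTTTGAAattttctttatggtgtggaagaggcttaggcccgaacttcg
Hist1h2bj: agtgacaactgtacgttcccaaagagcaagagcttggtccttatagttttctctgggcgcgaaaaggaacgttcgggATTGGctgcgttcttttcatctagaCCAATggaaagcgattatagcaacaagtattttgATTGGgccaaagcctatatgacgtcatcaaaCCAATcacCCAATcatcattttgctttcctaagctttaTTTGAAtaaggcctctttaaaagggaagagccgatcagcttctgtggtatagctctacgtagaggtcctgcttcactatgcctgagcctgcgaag
Cdkn3: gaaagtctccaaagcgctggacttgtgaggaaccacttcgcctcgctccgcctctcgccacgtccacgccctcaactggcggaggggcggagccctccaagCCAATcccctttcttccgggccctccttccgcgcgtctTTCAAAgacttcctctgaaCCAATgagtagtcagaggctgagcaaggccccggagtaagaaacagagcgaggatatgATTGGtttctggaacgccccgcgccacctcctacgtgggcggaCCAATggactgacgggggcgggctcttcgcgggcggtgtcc
*Mki67* held 2 TTTGAA and 3 CCAAT, *Prr11* 1 and 4, *Hist1h2bj* 1 and 5, and *Cdkn3* 1 and 4. The nearest TTTGAA before the start began 98 bases upstream in *Mki67*, 45 in *Hist1h2bj* and 111 in *Cdkn3*, whereas that of *Prr11* lay after the start. A match is a description of the letters and not a site.

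The same letters were counted for the other genes. Of the RefSeq windows matched to the 155 genes higher in SSC3 than in SSC4, 143 in all, 47.6% held TTTGAA, 58.7% CCAAT and 32.2% both. Of the 13202 windows of all genes compared with SSC4, 12% held TTTGAA, 38.4% CCAAT and 4.95% both. For the 58 genes lower in SSC3 than in SSC4 (48 matched) the shares were 10.1, 36.2 and 4.35%. For the 73 genes higher than in SSC2 (53 matched) they were 10.5, 28.9 and 0.0%, and for the 170 higher than in SSC1 (128 matched) 32.7, 51.2 and 22.2%. Among all 32851 RefSeq windows counted the shares were 17.9, 37.4 and 6.95%. The windows of a single chromosome were left out of all these counts. TTTGAA windows were thus most common among the genes by which SSC3 exceeded SSC4 and SSC1, and were near the share of all compared genes among those by which it exceeded SSC2.

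Further genes of mitosis followed. *Ckap2l*, a spindle protein, was 2.28 ± 1.06 higher in SSC3 than in SSC4 (89.0 against 21 CPM), and *Nusap1*, which binds spindle microtubules, 2.27 ± 0.61 (159 against 33 CPM). *Plk1*, the mitotic kinase, named here after its value was seen, was 2.12 ± 0.44 higher, and cyclin B2 (*Ccnb2*) 1.04 ± 0.35 (363 against 180 CPM). Of the S phase list 2 of 45 genes passed the same rule: *Rrm2*, a subunit of ribonucleotide reductase (1.36 ± 0.58, 159 against 63.9 CPM), and *Prim1*, the DNA primase (1.09 ± 0.40, 326 against 160 CPM). The median over the 53 G2 and mitosis genes was 0.90 and over the 45 S phase genes 0.35, where the median of all genes was 0.02.

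Some members of other lists were also higher in SSC3 than in SSC4 in all 15 libraries. Beside *Ccnb2*, the 1 of 23 genes of the list of progenitors and differentiating spermatogonia that passed, they were the meiotic recombinase *Dmc1* (1.18 ± 0.75, 40.4 against 17.3 CPM), and *Plk2* (1.43 ± 0.89) and *Gtse1* (0.91 ± 0.45) from the p53 target list, of which *Gtse1* is itself expressed in G2. These were 1 of 29 meiosis genes and 2 of 21 p53 targets. Among pluripotency genes none of 21 passed. *Klf5* (1.45 ± 1.16) was higher in 14 of 15 libraries and *Tfcp2l1* (1.75 ± 1.07) in 13, at means of 19 and 7.30 CPM in SSC3, and *Dppa4* was lower in 14 of 15 (-0.79 ± 0.40, 60.9 against 106 CPM).

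Among genes of at least 20 CPM in SSC4, those lower in SSC3 were led by *Ppfibp2*, a liprin (-1.65 ± 0.90, 25.3 against 72.3 CPM), *Isg20*, an interferon-induced exonuclease (-1.63 ± 1.4, 14.7 against 39.7), *Cfap53*, a cilium protein (-1.34 ± 0.69, 22.9 against 57.0), and *Xpa*, a DNA repair factor (-1.06 ± 0.62, 19.4 against 42.4). *Dnd1*, the germline RNA-binding protein, was lower in all 15 libraries but by less than 1.5-fold (-0.58 ± 0.14, 171 against 254). *Cldn11*, a tight junction gene of Sertoli cells, was lower by -1.87 ± 1.26, at 2.14 CPM in SSC3 and 12.9 in SSC4. The self-renewal list was on the lower side, with a median of -0.19 over 33 genes and 0 passing in either direction. Its receptor *Gfra1* was at 33.9 against 45.7 CPM (-0.42 ± 0.38, lower in 14 of 15 libraries) and the GDNF target *Etv5* at 112 against 138 (-0.30 ± 0.30, lower in 12 of 15), both named after their values were seen.

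Against SSC2 fewer genes were counted, and the leaders were *Pcsk2*, *Rnf125* and *Cdc42ep3*. Over 12 libraries (316 and 216 cells) 73 of 12253 genes were higher in SSC3 (0.596%) and 6 lower (0.049%), with none of the 53 G2 and mitosis genes among them. *Pcsk2*, a prohormone convertase, ran from 6.20 to 68.3 CPM in SSC3 (median 27.7) and from 0 to 17 in SSC2 (median 4.93), a difference of 2.43 ± 1.07. *Rnf125*, a ubiquitin ligase, was 2.35 ± 0.96 higher (28.4 against 6.11 CPM) and *Cdc42ep3*, a CDC42 effector, 2.29 ± 1.65 (47.3 against 11.5). *Plaur*, the urokinase receptor, ran from 2.18 to 81.0 CPM in SSC3 (median 55.7) and from 0.541 to 25.3 in SSC2 (median 11.9), 2.01 ± 1.06 higher. Ranges overlapped between libraries for these genes, although each was higher in SSC3 within all 12.

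After thinning, *Plaur* had a UMI in 74.5% of SSC3 cells, 23.9% of SSC2, 71.7% of SSC4 and 12.5% of SSC1. *Adm*, the peptide hormone adrenomedullin, had 78.1, 32.6, 74.8 and 18% in the same order, and *Tspan8*, a tetraspanin of stem-like spermatogonia, 81.3, 41.9, 84.8 and 28%. For each of these 3 genes the share in SSC3 was closer to SSC4 than to SSC2 or SSC1. *Adm* was 1.51 ± 1.0 higher in SSC3 than in SSC2 (71.6 against 26.9 CPM) and *Tspan8* 1.54 ± 0.48 (61.6 against 20.4), both in 12 of 12 libraries. Against SSC4 the same genes differed by 0.53 ± 0.80 (11 of 15 higher) and -0.25 ± 0.53 (4 of 15), and *Plaur* by 0.36 ± 0.90 (7 of 15), within the spread of libraries.

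The list of ERK feedback and immediate early genes, which respond to ERK signalling, had a median difference of 0.60 against SSC2 (all 12 library medians above 0) beside 0.01 for all genes, although only *Junb* of 22 passed the rule for single genes (1.2 ± 0.57, 81.4 against 35.5 CPM). *Egr2* was 1.26 ± 0.79 higher (65.9 against 29.1 CPM) in 11 of 12 libraries. Against SSC4 the list's median was -0.03, with library medians above 0 in 12 of 15, *Junb* at -0.10 ± 0.75 (higher in 9 of 15) and *Egr2* at -0.58 ± 0.61 (69.0 against 102 CPM). Self-renewal genes had a median of 0.16, with 2 of 31 passing. *T* (brachyury), a target of GDNF signalling in SSCs, was 2.98 ± 1.28 higher than in SSC2 (28 against 1.87 CPM) in 11 of 12 libraries, but -0.85 ± 0.92 against SSC4 (20.7 against 37.3 CPM).

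Most of the 73 genes higher in SSC3 than in SSC2 were in none of the lists. Of those in a list, *Utf1*, a chromatin factor of stem cells, was higher by 0.87 ± 0.50 (67.7 against 37.2 CPM), *Cyp51*, an enzyme of cholesterol synthesis, by 0.63 ± 0.37 (158 against 105), and *Msx1*, a homeobox gene, by 2.27 ± 0.98 (16.4 against 2.73), each in 12 of 12 libraries. The 20 cholesterol genes had a median of 0.35, above 0 in 12 of 12 libraries. Fibroblast and feeder genes moved with this contrast, with a median of 0.68 over 17 genes, above 0 in 12 of 12 libraries. *Mmp2*, a matrix protease of fibroblasts, was 1.51 ± 1.02 higher (12.9 against 4.23 CPM). Neural genes moved with it too, with a median of 0.49. Their part in the difference was not tested.

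The genes lower in SSC3 than in SSC2 were few. The leaders were *Igfbp6*, which binds IGF2 (-0.79 ± 0.78, 88.7 against 142 CPM), *Nfs1*, a cysteine desulfurase of iron-sulfur clusters (-0.72 ± 0.33), *Stxbp4* (-0.66 ± 0.39) and *Brca1*, the repair gene expressed in S phase (-0.62 ± 0.31, 68.3 against 107). Of the S phase list 0 of 45 passed, although its median was -0.29 and below 0 in all 12 libraries. Its helicase subunit *Mcm6* was lower in 12 of 12 by less than 1.5-fold (-0.47 ± 0.23, 281 against 392 CPM), and so was *Top2a*, the topoisomerase of replication and mitosis (-0.34 ± 0.13, 442 against 557 CPM).

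Against SSC1, the shallowest cluster, 25 of the 53 G2 and mitosis genes were again higher in SSC3, beside the leaders of the contrast with SSC2. Over 11 libraries (235 and 182 cells) 170 of 11241 genes were higher (1.51%) and 202 lower (1.8%), 372 in all (3.31%). The leaders were *Cdc42ep3* (3.03 ± 1.44, 46.4 against 5.55 CPM), *Pcsk2* (2.92 ± 1.21, 23.9 against 3.85), *Rnf125* (2.76 ± 1.31, 27.7 against 4.89) and the unnamed transcript *9930012K11Rik* (2.66 ± 1.41). The first 3 also led against SSC2. G2 and mitosis genes gave 25 of the 170, among them *Mki67* (2.17 ± 0.87) and *Nusap1* (2.25), with a list median of 0.91. *Timp1*, an inhibitor of metalloproteases that feeder cells also express, was 2.02 ± 1.09 higher (62.4 against 17.7 CPM), and the 14 fibroblast and feeder genes had a median of 0.99, above 0 in 11 of 11 libraries (0.56 in thinned and 0.13 in depth-matched cells). *Idi1*, of the cholesterol pathway, was 1.6 ± 1.34 higher (26.4 against 9.95 CPM) as 1 of 4 of the 20 that passed, with a median of 0.62.

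The genes lower than in SSC1 included many of translation and respiration. Of the 202, cytosolic ribosomal proteins gave 64 (of 77 in the list), the mitochondrial genome 7 of 9, and nuclear genes of oxidative phosphorylation 15 of 74, with medians of -0.79, -0.91 and -0.35 beside 0.12 for all genes. Ribosomal protein genes took 5.12% of UMIs in SSC3 and 9.34% in SSC1, lower in 11 of 11 libraries, against 4.93 and 5.69% beside SSC2 and 5.10 and 5.53% beside SSC4. *Rpl17*, of the large ribosomal subunit, was lower by -1.23 ± 0.53 and *Atp5b*, of the ATP synthase, by -0.81 ± 0.23. Other leaders were *Pxt1*, a testis gene (-1.77 ± 1.37, 10.6 against 31.4 CPM), *4933431E20Rik* (-1.39 ± 0.94), *Igfbp6* (-1.39 ± 0.90, 80.5 against 195) and *Stra8*, the gene that retinoic acid induces at the entry into differentiation and meiosis (-1.34 ± 1.19). *Stra8* ran from 15.7 to 186 CPM in SSC3 (median 64.2) and from 94.6 to 284 in SSC1 (median 145), lower within all 11 libraries. The ubiquitin hydrolase *Uchl1*, high in spermatogonia, was at 562 ± 95.2 CPM in SSC3 (-0.89 ± 0.27).

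The lists of genes by which SSC3 exceeded each cluster overlapped in part. Of the 170 higher than in SSC1 and the 155 higher than in SSC4, 59 were shared (34.7 and 38.1% of each list). Of the 170 and the 73 higher than in SSC2, 20 were shared (11.8 and 27.4%), and of the 73 and the 155 1 was (1.37 and 0.645%), where 1.17% of all genes were higher than in SSC4 and 0.596% higher than in SSC2. None was in all 3. The 3 comparisons use the same SSC3 sums.

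Against all other SSC1 to SSC4 cells of the same library together, 34 of 13960 genes were higher (0.244%) and 6 lower (0.043%), 40 in all (0.287%), over 18 libraries (471 and 854 cells). Without day 27 replicate 4 the total of 40 became 66. The leader was *Hist1h2bj* (1.73 ± 1.09), followed by the spindle motor *Kif11* (1.18 ± 0.66), *Cdkn3* (1.15 ± 0.62) and *Prc1*, which bundles midzone microtubules (1.1 ± 0.60). *2810417H13Rik* (1.05 ± 0.89), cyclin A2 (*Ccna2*, 0.99 ± 0.50) and *Aurka*, the centrosome kinase (0.98 ± 0.52), followed with *Tuba4a*, an alpha tubulin (1.02 ± 0.39). *Mki67* was higher in 17 of 18 libraries (1.57 ± 1.2). These genes separate SSC3 from SSC1 and SSC4, and 5 of the 34 are in the list of G2 and mitosis genes.

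*Cdkn1a* was among the 34 and was higher in SSC3 than in each of the other clusters. It encodes p21, an inhibitor of cyclin-dependent kinases and a p53 target. It ran from 159 to 440 CPM in SSC3 (median 226) and from 55.6 to 176 in the other SSC cells (median 113), a difference of 1.08 ± 0.46 in 18 of 18 libraries. By cluster the difference was 2.15 ± 1.11 against SSC1 (11 of 11), 0.99 ± 0.41 against SSC2 (12 of 12) and 1.0 ± 0.67 against SSC4 (14 of 15). After thinning, 97.0% of SSC3 cells had a *Cdkn1a* UMI, 82.4% of SSC2, 82.6% of SSC4 and 56.8% of SSC1. *Tob1*, an antiproliferative regulator of mRNA decay, was also higher (1.07 ± 0.68, 43.4 against 19.9 CPM). Of the 22 p53 targets, *Cdkn1a* was the only gene to pass, and the list's median was 0.09 where all genes had -0.03.

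Lower in SSC3 in all 18 libraries were *Dbx2*, a homeobox gene (-1.03 ± 1.0, median 29.5 against 47.2 CPM, SSC3 range 1.88 to 78.8), *Fam120b* (-0.89 ± 0.56), *Ccdc181* (-0.64 ± 0.34) and *Snapin*, of vesicle transport (-0.59 ± 0.33). *Mrpl27*, *Stxbp4*, *Gyltl1b*, *Saysd1*, *Txnip* and *Ccdc6* were lower in every library too, by less than 1.5-fold (-0.57 to -0.43). *Nanos2*, which keeps SSCs undifferentiated, was at 6.06 ± 4.08 CPM against 14 ± 8.08 (-1.18 ± 1.15), lower in 17 of 18 libraries. *Nanos3*, of primordial germ cells and progenitors, was at 129 against 193 CPM (-0.64 ± 0.58), also lower in 17. The 24 germ cell identity genes had a median of -0.20, below 0 in 18 of 18 libraries, with 0 past the limit.

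**Figure D4:**
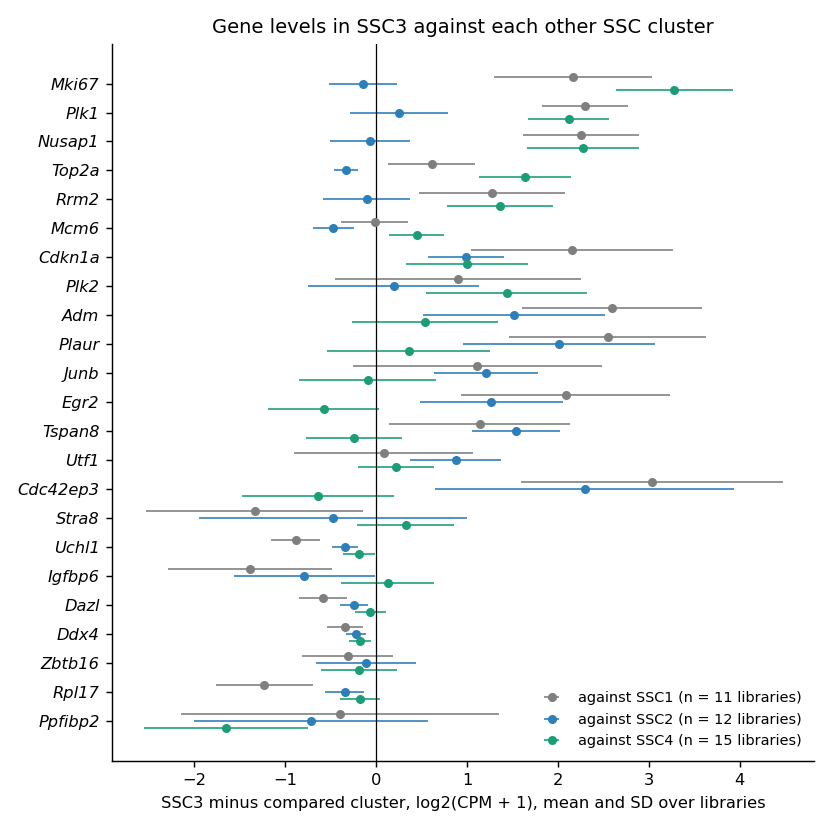
Difference of SSC3 from SSC1 (n = 11 libraries), SSC2 (n = 12) and SSC4 (n = 15) in log2(CPM + 1) for named genes, as mean (points) and SD (lines) over libraries. *Mki67* is near 0 against SSC2 and above 2 against SSC1 and SSC4, *Plaur* is near 0 against SSC4, and *Cdkn1a* is above 0 against all 3.

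To compare the clusters at equal depth, cells were also matched within libraries on UMIs to within a ratio of 1.1, which gave 326 pairs in 18 libraries against all other SSC cells, 231 in 13 against SSC4, 123 in 11 against SSC2 and 17 in 3 against SSC1. The median of the G2 and mitosis genes against SSC4 was 0.90 in all cells, 0.97 in thinned cells and 0.91 in matched cells, and *Mki67* against SSC4 was 3.37 in matched cells. Against SSC2 the ERK feedback and immediate early genes had 0.60 in matched cells and *Plaur* 1.90. *Cdkn1a* was 1.06 higher than in all other SSC cells when matched, 1.21 than in SSC2 and 1.26 than in SSC4. Against SSC1 it went from 2.15 to 1.56. The rule for single genes, which asks for the same sign in every library, was met by fewer of them in matched cells: 6 of the 40 counted against all others still did, 24 of the 79 against SSC2, 125 of the 213 against SSC4 and 132 of the 372 against SSC1. The mean differences of named genes against all others were of similar size there, with 1.92 for *Hist1h2bj* (1.73 in all cells), 1.26 for *Kif11* (1.18), 1.09 for *Ccna2* (0.99) and -1.17 for *Dbx2* (-1.03), although *Cdkn3* had 0.81 (1.15).

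The ribosomal and mitochondrial differences were smaller in matched cells. There the ribosomal proteins had medians of -0.03 against all other SSC cells, -0.10 against SSC2 and -0.14 against SSC1, where they had -0.24, -0.26 and -0.79 in all cells. The mitochondrial genome went from -0.25 to -0.04 against all others and from -0.91 to -0.09 against SSC1. *Rpl17* against SSC1 went from -1.23 to -0.10 and *Atp5b* from -0.81 to -0.09. The matched SSC1 values rest on 17 pairs. Thinning alone moved the ribosomal median against SSC1 to -0.60. Of the label markers, *Dazl* (0.06) and *Ddx4* (-0.04) lay closer to 0 against all others in matched cells, as did the germ cell identity list (-0.06), but *Zbtb16* did not, at -0.22 against all others, -0.39 against SSC4 and -0.80 against SSC1.

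Between day 20 and day 23, no gene of SSC3 was called. The sums of 7 libraries of day 20 (239 cells) and 6 of day 23 (184 cells) were compared with edgeR's quasi-likelihood test, in 1 fit with the earlier days. Of 15059 genes 0 passed an adjusted p of 0.05 with an absolute natural-log fold of 0.5 (0% in either direction), the smallest adjusted p was 0.958, and 429 genes had an unadjusted p below 0.05. DESeq2 called 2 genes. *Zbtb16* had 99.1 ± 11.5 CPM on day 20 and 85.9 ± 11.9 on day 23, a log2 fold change of -0.21 (unadjusted p = 0.184, edgeR). The median over the 53 G2 and mitosis genes was -0.17 and over the 24 genes of ERK feedback and immediate early response 0.20, beside -0.01 for all genes.

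SSC3 cells of days 20 and 23 differed from the few SSC3 cells found earlier. The 13 late libraries were compared with 4 early ones (day 10 replicate 1 and day 14 replicates 3, 4 and 5, with 37 cells in all), and 226 of 15059 genes were called by edgeR, 167 higher late (1.11%) and 59 lower (0.392%). No gene of the G2 and mitosis (53), S phase (45) or ribosomal protein (77) lists was called, with medians of -0.11, -0.07 and -0.04 beside 0.04 for all genes. The called genes of the lists belonged to those of self-renewal, differentiating spermatogonia, ERK, glycolysis, hypoxia, and fibroblasts and feeders. The call count depended on single early libraries and was 126 without day 14 replicate 4, 134 without day 10 replicate 1 and 483 without day 14 replicate 5. Of the early libraries, day 10 replicate 1 and day 14 replicate 4 are of batch B1, as are all 13 late ones, and day 14 replicates 3 and 5 are of batch B2. Within batch B1, 902 genes were called, 162 of the 226 among them. In cells thinned to 100000 UMIs, 189 were called, 114 of the 226 among them, and of the genes named below *T*, *Ldhb*, *Lmo1*, *Ttc29* and *Spef2* were not. The early and late libraries were collected on different dates, and day and date cannot be told apart.

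Among self-renewal genes, 3 of 33 fell and 1 rose. *Lhx1*, a GDNF-dependent transcription factor, had 289 CPM in day 10 replicate 1, had 98.1, 248 and 56.1 in day 14 replicates 3, 4 and 5, and ran from 36.2 to 104 in the late libraries (median 65.0). It fell by 1.38 on the log2 scale (edgeR adjusted p = 0.00845), with overlap of the groups, and the 2 early libraries of batch B1 were the higher ones (it fell by 2.02 within B1). *Plvap*, known from the diaphragms of fenestrated endothelium, was at 158, 91.3, 91.0 and 77.2 CPM in the same order and at 20.4 to 64.4 late, and fell by 1.21 (adjusted p = 0.00927) with no overlap. *T* was at 91.2, 46.6, 53.5 and 15.6 CPM early and at 8.29 to 33.8 late, and fell by 1.42 (adjusted p = 0.0321). The calls of *Lhx1* and *Plvap* were kept in 15 and 16 of 17 fits without 1 library, and that of *T* in 11 of 17. All 3 were lost without day 10 replicate 1, and those of *Lhx1* and *T* without day 14 replicate 4.

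*Etv4*, an ETS factor downstream of GDNF and ERK, rose from the early days to days 20 and 23. It was at 51.6, 52.9, 45.0 and 47.5 CPM in the 4 early libraries and at 63.8 to 111 in the late ones (median 82.8), a log2 fold change of 0.80 (edgeR adjusted p = 0.00925) with no overlap. The 1 library of day 27, which was not in the fit, had 39.6 CPM, below all 4 early libraries. *Klf6*, also of the ERK list, was at 5.19, 11, 16.6 and 17.9 CPM early and at 19.3 to 59.4 late, and rose by 1.42 (adjusted p = 0.0295). These 2 were the called genes of the 24 in the ERK list. *Etv4* was called in 17 of 17 fits without 1 library, but not with at least 10 cells per sum. *Klf6* was called in 14 of 17, not without day 10 replicate 1, day 14 replicate 3 or day 23 replicate 7. Neither was called with the replicate number as a block.

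Cyclin D1 (*Ccnd1*) drives the entry into S phase and was in the list of progenitors and differentiating spermatogonia. It was at 134, 89.3, 120 and 78.5 CPM early and at 29.4 to 67.9 late (median 49.6). It fell by 1.06 (edgeR adjusted p = 0.00528) with no overlap between the groups, and was lower on day 23 (29.4 to 62.9) and day 20 (48.1 to 67.9) than in each early library. *Esx1*, a homeobox gene, rose by 1.38 (adjusted p = 0.0252) from 8.90 to 78.5 CPM in the early libraries to 54.4 to 131 late, and *Lmo1*, a LIM cofactor, by 1.92 (adjusted p = 0.0409). These were the called 3 of 23 genes of the list of progenitors and differentiating spermatogonia. *Ldhb*, the heart-type lactate dehydrogenase, rose by 1.21 (adjusted p = 0.0414, 1 of 18 glycolysis genes), and *Ero1l*, the hypoxia-induced oxidase of the endoplasmic reticulum, by 1.01 (adjusted p = 0.0185, 1 of 16 hypoxia targets). *Ldhb* had 19.7 and 39.8 CPM in the early libraries of batch B1 and 158 and 182 in those of B2. *Ccnd1* was called in 17 of 17 fits without 1 library, *Ero1l* in 16 and *Esx1* in 14, but *Ldhb* in 4 and *Lmo1* in 5. Within batch B1 the calls of all 5 were kept.

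**Figure D5:**
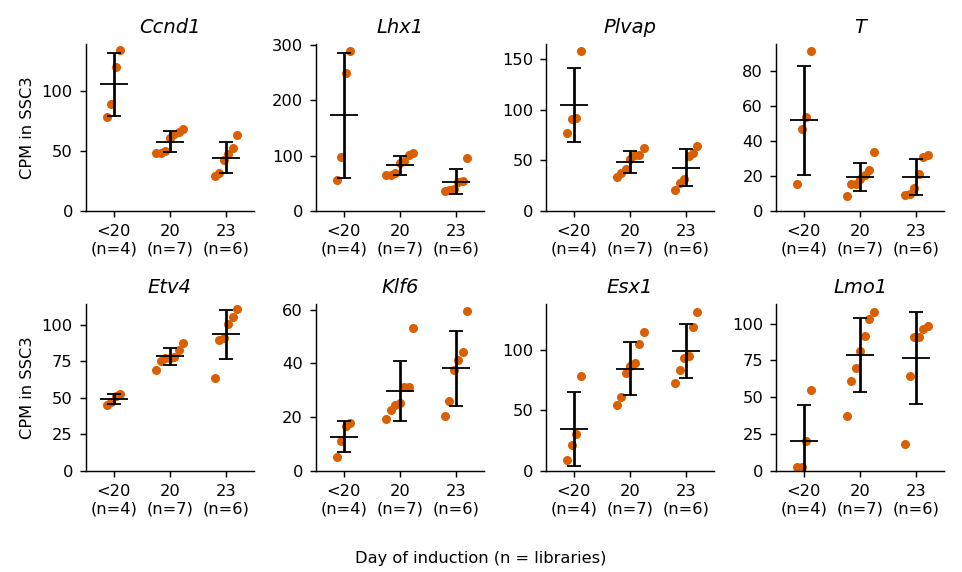
CPM of named genes in the SSC3 sum of each library (y axis) before day 20 (n = 4), on day 20 (n = 7) and on day 23 (n = 6), with the mean and SD as black lines. *Ccnd1* and *Plvap* lie higher and *Etv4* and *Klf6* lower in each early library than in any late one.

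The largest fold changes were in genes of low level. *Mill2*, an MHC class I-like gene, had 0 UMIs in the early SSC3 cells and 0.194 to 30.6 CPM in the 13 late libraries, at least 25-fold higher with a floor of 3 counts over the early group (edgeR adjusted p = 0.0109). *Svs5* was at least 41.9-fold higher (adjusted p = 0.0103), *Ttc29* at least 28.5-fold, *Kcnk1*, a potassium channel, at least 19.5-fold and *Spef2*, of the sperm flagellum, at least 8.58-fold, all with 0 early UMIs. The lowest late library held 3 UMIs of *Mill2*, and that of *Spef2* held 1. The library of day 27, which was not in the fit, had 0 UMIs of *Mill2* and *Spef2*. It had 16.1 CPM of *Svs5*, 2.86 of *Kcnk1* and 1.02 of *Ttc29*. Of the lower genes, *Col1a2* fell by 4.47 (adjusted p = 0.0419), from 36.3, 0, 101 and 0.638 CPM in the early libraries, so that its level came from 2 of them. The protease *Mmp3*, also of fibroblasts, was at 7.05, 0, 1.90 and 5.10 CPM and fell by 5.91 (adjusted p = 0.0369). *Gm16045*, *Gm13589* and *Hist1h4k* were the other 3 leaders, each at 0 in 1 early library. Of these 10 genes, *Kcnk1*, *Mill2*, *Svs5* and *Ttc29* were called in 17 of 17 fits without 1 library, *Spef2* in 4 of 17, *Mmp3* in 8 of 16, *Col1a2* in 3 of 15 and *Gm13589* in 3 of 15. *Spef2* and *Gm13589* were not called within batch B1. *Mmp3*, *Col1a2*, *Gm13589* and *Gm16045* were not called with DESeq2. Of the 26 fibroblast and feeder genes *Col1a2* was the only one called, and the part of feeder RNA in this was not tested.

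The change from day 20 to day 23 was then compared between SSC3 and the other SSC cells. With the library as a block, 21 of 15652 genes were called by edgeR for the difference of the 2 changes, 18 with the higher value for SSC3 (0.115%) and 3 with the lower (0.0192%). The clusters were drawn on these same transcriptomes, and the makeup of the other cells changed between the days. These calls therefore describe the sums and are no independent test of SSC3. Leaders were *Mki67* (1.83, adjusted p = 0.0023), the histone genes *Hist1h2ae* (1.8, adjusted p = 0.00238) and *Hist1h1e* (1.43, 0.0023), *2810417H13Rik* (1.65, adjusted p = 5e-05) and *Rrm2* (1.2, 0.00206). *Mki67* was at 140 ± 26.7 and 132 ± 22.3 CPM in SSC3 on days 20 and 23, and at 64.2 ± 14.6 and 18.8 ± 11.1 in the other SSC cells. In all, 6 of 45 S phase genes and 4 of 53 G2 and mitosis genes were called, none lower.

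The makeup of the other cells differed between the days. On day 20 the 312 other SSC cells were 45.8% SSC4 and 34.6% SSC2, and on day 23 the 303 were 87.1% SSC4 and 5.28% SSC2. Against SSC4 alone, over the same 13 libraries, 0 of 15071 genes were called by edgeR (smallest adjusted p = 0.576, 596 at an unadjusted p below 0.05), and *Mki67* had 0.14. The other leaders had 0.60 (*Rrm2*, edgeR unadjusted p = 0.00641), 0.40 (*2810417H13Rik*), 0.33 (*Hist1h1e*) and 0.25 (*Hist1h2ae*). Over the 18 genes with the higher value, those against SSC4 ran from -0.15 (*Ccna2*) to 0.78 (*Crip2*, 0.74 against all others). The 3 genes lower were *F2rl1*, a protease-activated receptor (-1.32, adjusted p = 0.0461, SSC3 42.1 to 31.5 and others 17.9 to 30.8 CPM), *Lhx1* (-1.22, 0.0483) and *Mvk*, mevalonate kinase (-0.78, 0.0459). Against SSC4 alone their values were -1.25, -0.88 and -0.90 with unadjusted p of 0.00022, 0.00258 and 5.04e-05 (edgeR). The calls of these 3 genes were lost in 9 of 13 fits without 1 library, and those of the 5 higher leaders in none. The 21 became 13 without day 20 replicate 7 or replicate 9, and 35 without day 23 replicate 5.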

How the data were processed

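Per the labels and the study's methods, the authors assigned reads to cells and UMIs with UMI-tools, aligned them to mm10 with STAR 2.7.2b and counted genes with featureCounts 2.0.0. They deposited UMI counts per gene and cell, and a cell annotation with the cluster, the UMI total and the percent of mitochondrial UMIs, which the authors computed. SSC3 was taken from that annotation. The totals of all 2265 SSC1 to SSC4 cells in the deposited counts equal the annotated ones. The members and the 24 gene lists were chosen with earlier results of these data known.

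Counts were summed per library and cluster (at least 5 cells), which gave 2160773 to 20871855 UMIs per SSC3 sum. Cluster contrasts are paired log2 differences of TMM-scaled CPM with a pseudocount of 1 CPM, given without a test. Genes named are the label markers, the 10 (all other SSC cells) or 4 (each cluster) largest differences in each direction with the same sign in every library and a mean of at least 20 CPM on the higher side, up to 3 members per list, and the 5 largest called fold changes in each direction by day. Further list members are named because they passed a limit or were of interest after their values were seen. Changes by day were tested with edgeR 4.0.16 (quasi-likelihood, Benjamini-Hochberg adjustment, R 4.3.3) in 1 fit of 17 libraries with 14 residual degrees of freedom. The 1 library of day 27 was left out of it. A call needs an adjusted p under 0.05 and an absolute natural-log fold of at least 0.5. DESeq2 1.42.0 was an alternative. Shares of cells were compared by permutation with SciPy 1.17.1. Cells were thinned to 100000 UMIs or matched on UMIs. Cells were hand-picked and doublets were not called. Whether any profile holds more than 1 cell was not tested. Scripts were tested on simulated data.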

Additional observations from a re-analysis of the deposited data

Results flagged for a closer look

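Among 71 groups of SSC3 libraries, 9 had a library far from the others by Dixon's 95% critical value, a criterion that chance meets in about 1 in 20 groups. *Col1a2* was at 12.5 CPM in day 20 replicate 9 (median 0.130) and at 5.68 in day 23 replicate 6 (median 0.0973). *Gm16045* was at 1.16 CPM in day 20 replicate 7 (median 0.179) and at 0.0449 in day 23 replicate 7, where the other libraries had 0. *Hist1h4k* was at 0.578 CPM in day 20 replicate 7 (median 0.0627) and *Mmp3* at 2.44 in day 20 replicate 8 (median 0). *Klf6* was at 53.2 CPM in day 20 replicate 9 (median 25.4). In day 23 replicate 1 *Lhx1* was at 95.6 CPM (median 46.5) and *Spef2* at 20.5 (median 3.07).

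The change from day 20 to day 23 differed between SSC3 and the other SSC cells in 8 named genes by the edgeR interaction test. The clusters were drawn on these same transcriptomes, so these calls describe the sums. From day 20 to day 23 the other cells went from 34.6 to 5.28% SSC2 and from 45.8 to 87.1% SSC4. The log2 difference of the changes was 1.83 for *Mki67*, 1.8 for *Hist1h2ae*, 1.65 for *2810417H13Rik*, 1.43 for *Hist1h1e*, 1.2 for *Rrm2*, -0.78 for *Mvk*, -1.22 for *Lhx1* and -1.32 for *F2rl1*. Against SSC4 alone 0 genes were called by edgeR, with 596 at an unadjusted p below 0.05.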

How the results depend on the processing

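Counts of genes are given against all other SSC cells, SSC1, SSC2 and SSC4 in that order, where the reported ones are 40, 372, 79 and 213. They were 62, 734, 148 and 410 with at least 10 cells per sum, 13, 135, 45 and 100 with a 2-fold limit, and 1495, 3364, 1601 and 1798 without the pairing by library (no replicate block). Batch B2 alone gave 3137, 3591, 3004 and 3616, and batch B1 alone 140 against SSC2. Depth-matched cells gave 13 against all others and 2074 against SSC1. Days 20 and 23 alone, chosen after seeing the data, gave 171, 1026 and 433 for the first 3. Leaving out each library gave 39 to 66, 371 to 473, 93 to 115 and 216 to 255. Fewer libraries make the same sign in every library easier to reach. Against SSC1 in depth-matched cells *Npm1* (0.000775), *Ncl* (0.0611) and *Pkm* (0.00814) changed sign.

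The SSC3 share of day 23 minus day 20 was 8.28 points (exact permutation p = 0.484) when libraries with any SSC cell were used, and -7.60 to -1.74 without each library. Genes per cell not thinned differed by 1037. Day 23 against day 20 gave 2 genes with DESeq2. Days 20 and 23 against earlier days (226 called) gave 677 with DESeq2, 359 without a filter on low counts, 519 with at least 10 cells, 902 in batch B1 (added after seeing the data), and 126 to 483 without each library. The replicate block gave 35, of which 31 were among the 226. Of the called genes named for this comparison, only *Ccnd1*, *Ero1l*, *Ldhb*, *Kcnk1* and *Col1a2* kept their calls there. Replicate numbers do not pair the libraries: correlations of same-numbered libraries ran from -0.151 to 0.137, and 2 of 5 correlated best with their own number. The interaction (21 called) gave 100 with DESeq2, 64 without a filter, 36 without a fold limit, 0 against SSC4 alone by edgeR (added after seeing the data, 596 at an unadjusted p below 0.05), and 13 to 35 without each library. The cause of these shifts was not tested.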
